A study of Homo sapiens with 3 samples.

Results

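The structural RNAs described here are the noncoding RNAs RN7SL1, RN7SL2, RN7SK, RNA45S5, RMRP and RPPH1, chosen by an exact match of the gene name, and they are 6 of the 26485 genes in the count table. They were measured in total RNA of HEC1B, an established human endometrial cancer cell line, at 48 h. The library labelled siPRMT6-1 and the library labelled siPRMT6-2 each came from cells given a different siRNA against PRMT6, a protein arginine methyltransferase that methylates histones and other proteins, and the library labelled siNC came from cells labelled wild type and given the control siRNA. The labels give 1 library per siRNA, do not say whether the libraries came from separate cultures, and number the siRNAs differently in titles and descriptions, so each value rests on both labels of a library being right. The differences between single libraries have no replicate check.

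RN7SL1 and RN7SL2 encode the RNA of the signal recognition particle, which binds ribosomes making secreted and membrane proteins and brings them to the endoplasmic reticulum. RN7SK encodes the RNA that, with HEXIM and LARP7 proteins, holds the elongation kinase P-TEFb inactive in the nucleus. RPPH1 is the RNA of RNase P, which trims the leader of transfer RNA precursors, and RMRP is the RNA of the related RNase MRP, which acts in ribosomal RNA processing. These genes are transcribed by RNA polymerase III, while RNA45S5 is the ribosomal RNA precursor, made by RNA polymerase I and cut into the 18S, 5.8S and 28S RNAs of the ribosome.

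RN7SL1 lies on the plus strand of chromosome 14, inside an intron of RPS29, which is on the opposite strand, and RN7SL2 on the minus strand of that chromosome, inside an intron of the long noncoding RNA gene AL627171.2. The copies are 98.7% identical over 299 compared bases, so many reads cannot be assigned to 1 copy. The counting command lacked the option that counts reads with several alignments. Counts, shares and ranks of RN7SL1 and RN7SL2 may therefore miss such reads, and the split between the copies is uncertain. RN7SL3, a further copy with no row under that name in the count table, is 97.7% identical to RN7SL1.

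The sequences of 7SK and of the related RMRP and RPPH1 are shown for the letters that bear on their partners and for what the related RNAs share. They are the GENCODE release 29 transcripts on GRCh38 (hg38), written as DNA in lower case.

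In 7SK, whose transcript lies on the plus strand at chr6:52995621-52995948 and whose row counted chr6:52995620-52995951, capitals mark GATC. HEXIM1 is known to bind GATC elements (GAUC in RNA) in the first hairpin of human 7SK. The letters occur 3 times in the transcript, at bases 12 to 15, 41 to 44 and 63 to 66. All are marked by their letters alone, and which of them lie in that hairpin or are bound by HEXIM1 was not tested.

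RN7SK, bases 1 to 300 of 328: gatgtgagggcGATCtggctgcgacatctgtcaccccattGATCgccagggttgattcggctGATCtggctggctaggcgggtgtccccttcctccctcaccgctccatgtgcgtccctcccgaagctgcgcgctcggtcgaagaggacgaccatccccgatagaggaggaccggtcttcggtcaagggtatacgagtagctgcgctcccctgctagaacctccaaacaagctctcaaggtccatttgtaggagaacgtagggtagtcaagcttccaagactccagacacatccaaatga

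GATC, which reads the same on both strands, also occurs 4 times each in RN7SL1 and RN7SL2, and in neither RMRP nor RPPH1. Of 190637 GENCODE transcripts of at least that length, 60.1% hold it in their first 328 bases and 7.26% hold it at least 3 times, so the letters alone are common.

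RMRP is on the minus strand at chr9:35657751-35658018 and the RPPH1 transcript on the minus strand at chr14:20343075-20343407, with chr14:20343071-20343411 counted. Capitals mark their longest shared run, 9 bases that start at base 243 of RMRP and base 146 of RPPH1. How often other RNAs share a run of this length was not tested, and it is not shown to be a shared element.

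RMRP: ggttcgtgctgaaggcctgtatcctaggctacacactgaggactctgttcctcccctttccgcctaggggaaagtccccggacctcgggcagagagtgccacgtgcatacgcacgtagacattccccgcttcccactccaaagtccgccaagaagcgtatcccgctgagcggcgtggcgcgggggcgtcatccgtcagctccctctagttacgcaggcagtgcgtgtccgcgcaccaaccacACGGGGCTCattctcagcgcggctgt
RPPH1, bases 1 to 300 of 333: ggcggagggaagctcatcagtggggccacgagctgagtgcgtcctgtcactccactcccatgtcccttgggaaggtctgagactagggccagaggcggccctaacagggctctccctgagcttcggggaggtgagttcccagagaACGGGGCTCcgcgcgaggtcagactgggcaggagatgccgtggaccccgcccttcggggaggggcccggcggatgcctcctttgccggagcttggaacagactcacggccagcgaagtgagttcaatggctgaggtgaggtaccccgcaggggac

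The library totals were 381628 counts in siPRMT6-1, 362080 in siPRMT6-2 and 410916 in siNC, and 5512 to 5754 genes reached 10 counts. PRMT6 itself had 4 counts in siPRMT6-1 and 7 in siPRMT6-2, against 25 in siNC. Its fitted log2 fold change was −2.02 (SE 0.692), with an adjusted p of 1.00 in edgeR's quasi-likelihood test. The siPRMT6-2 library stood apart: ISG15, an interferon-induced ubiquitin-like protein, had 3 counts in siPRMT6-1, 308 in siPRMT6-2 and 1 in siNC. KRT8 had 681, 770 and 1329 counts in siPRMT6-1, siPRMT6-2 and siNC and PAX8 117, 227 and 158, while the epithelial genes KRT19 and CDH1 were at 0 in all 3 libraries. Of the other cell types' markers, PTPRC, CD3E and CD14 of leukocytes, COL1A2, COL3A1, DCN and LUM of fibroblasts and CDH5 and KDR of endothelium were at 0. The same lists also held counts: COL1A1 had 354 in siPRMT6-1 and 370 in siPRMT6-2, against 515 in siNC, PDGFRB had 6 and 2, against 16, and PECAM1 had 16 and 5, against 19. The leukocyte list summed to 19, 57 and 17 counts in siPRMT6-1, siPRMT6-2 and siNC, nearly all of it CD68, and its part in the results was not tested. The strand of the counted reads is uncertain in this table: in siNC, 118 of 142 antisense-named genes outnumbered the gene they overlap. In GENCODE, an exon of the long noncoding RNA gene FP236383.3 overlaps RNA45S5 on chromosome 21, on the opposite strand. In the count table, none of the 6 RNAs overlaps an exon of another gene on the other strand. If the strand setting was inverted throughout, their counts would be reads of the strand opposite to the RNA, which was not tested, and levels and ratios hold for the reads as counted.

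Together the 6 RNAs held 30954 counts (8.11% of the total, 95% interval 8.02 to 8.20) in siPRMT6-1 and 34257 counts (9.46%, 9.37 to 9.56) in siPRMT6-2, against 29329 counts (7.14%, 7.06 to 7.22) in siNC. Intervals are exact binomial, cover counting error only and compare libraries, not conditions. Both knockdown libraries were above siNC and siPRMT6-2 was the highest. In these bulk libraries, fewer cells of a kind and less RNA per cell cannot be told apart. After TMM scaling, a depth correction from the bulk of the genes, the sum was 1.10 times siNC in siPRMT6-1 (1.08 to 1.12) and 1.36 times in siPRMT6-2 (1.34 to 1.38).

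**Figure D1:**
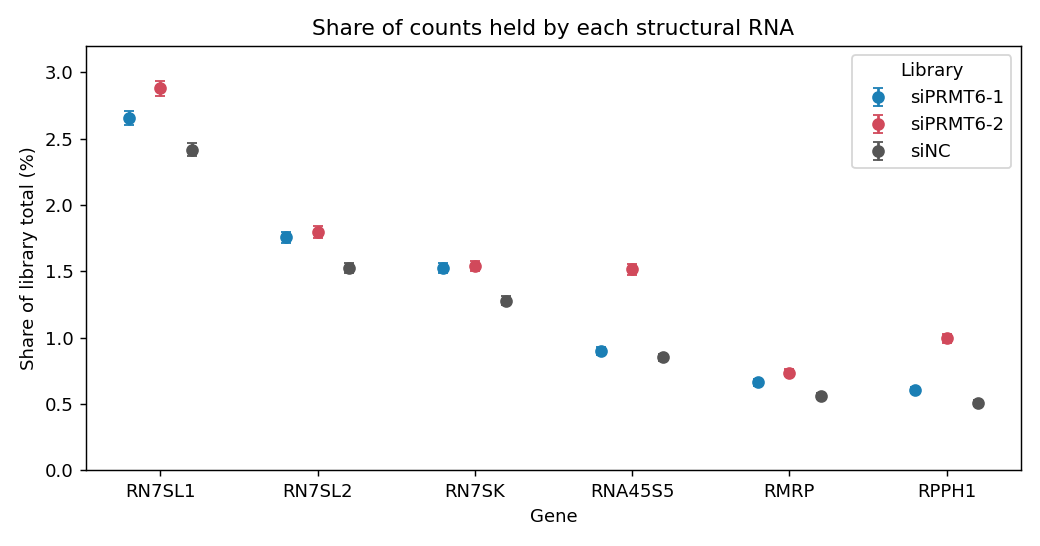
Share of the library total in percent (vertical axis) of each of the 6 RNAs in siPRMT6-1, siPRMT6-2 and siNC, with exact binomial 95% intervals of the counting error. RN7SL1 was the most abundant, at 2.66%, 2.88% and 2.42%, and RNA45S5 and RPPH1 stand out in siPRMT6-2.

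The signal recognition particle RNA was the most abundant of the 6. RN7SL1 had 10139 counts (2.66%) in siPRMT6-1 and 10425 counts (2.88%) in siPRMT6-2, against 9938 counts (2.42%) in siNC. RN7SL2 had 6710 counts (1.76%) in siPRMT6-1 and 6508 counts (1.80%) in siPRMT6-2, against 6257 counts (1.52%) in siNC. Both were lowest in siNC. Among all genes RN7SL1 ranked 1 by count in siPRMT6-1 and 2 in siPRMT6-2 and in siNC, and RN7SL2 ranked 3 in each library. RN7SL1 was 1.06 times siNC in siPRMT6-1 (1.03 to 1.09) and 1.22 times in siPRMT6-2 (1.19 to 1.25), and RN7SL2 was 1.12 times (1.08 to 1.16) and 1.21 times (1.17 to 1.25). These are ratios of TMM-scaled counts. With the copies summed, which avoids the uncertain split, the ratio was 1.08 in siPRMT6-1 (1.06 to 1.11) and 1.21 in siPRMT6-2 (1.19 to 1.24). The sum does not bring back reads with several alignments that were left uncounted. Within a library, which needs no scaling, RN7SL1 had 1.51 times the counts of RN7SL2 in siPRMT6-1 (1.46 to 1.56) and 1.60 times in siPRMT6-2 (1.55 to 1.65), against 1.59 times in siNC (1.54 to 1.64).

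RN7SK, the P-TEFb scaffold, had 5821 counts (1.53%) in siPRMT6-1 and 5574 counts (1.54%) in siPRMT6-2, against 5258 counts (1.28%) in siNC. It was 1.15 times siNC in siPRMT6-1 (1.11 to 1.20) and 1.23 times in siPRMT6-2 (1.19 to 1.28). The knockdown libraries were close to each other, at a ratio of 1.07 of siPRMT6-2 over siPRMT6-1 (1.03 to 1.11), and both above siNC.

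The 2 related ribozyme RNAs differed in how the siPRMT6-2 library stood to the others. RMRP had 2528 counts (0.662%) in siPRMT6-1 and 2661 counts (0.735%) in siPRMT6-2, against 2302 counts (0.560%) in siNC. RPPH1 had 2314 counts (0.606%) in siPRMT6-1 and 3603 counts (0.995%) in siPRMT6-2, against 2076 counts (0.505%) in siNC. RPPH1 in siPRMT6-2 was the one value of this pair well apart from the other libraries. RMRP was 1.14 times siNC in siPRMT6-1 (1.08 to 1.21) and 1.34 times in siPRMT6-2 (1.27 to 1.42). RPPH1 was 1.16 times siNC in siPRMT6-1 (1.09 to 1.23) and 2.02 times in siPRMT6-2 (1.91 to 2.13). Within a library RPPH1 had 0.915 times the counts of RMRP in siPRMT6-1 (0.865 to 0.969) and 1.35 times in siPRMT6-2 (1.29 to 1.42), against 0.902 times in siNC (0.849 to 0.957). Their opposite-strand neighbours had few counts: CCDC107, 272 bases from RMRP, had 56, 36 and 52 counts in siPRMT6-1, siPRMT6-2 and siNC, and PARP2, 203 bases from RPPH1, had 1, 0 and 2.

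RNA45S5 had 3442 counts (0.902%) in siPRMT6-1 and 5486 counts (1.52%) in siPRMT6-2, against 3498 counts (0.851%) in siNC. The siPRMT6-2 library was again apart, and the other libraries lay together. The ratio to siNC was 1.02 in siPRMT6-1 (0.977 to 1.07) and 1.82 in siPRMT6-2 (1.75 to 1.90), and siPRMT6-2 over siPRMT6-1 was 1.78 (1.70 to 1.86). This row joins 3 loci on hg38, chr21:8433222-8446572 and one each on the scaffolds chr22_KI270733v1_random and chrUn_GL000220v1. Of its 40081 exon bases, 53.1% are shared with the rows of the mature ribosomal RNAs, and a read pair in overlapping genes was counted for each of them.

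The rows of the mature RNAs gave unlike values. RNA18S5, the RNA of the small ribosomal subunit, had 324 counts in siPRMT6-1 and 515 in siPRMT6-2, against 442 in siNC, ratios of 0.763 (0.659 to 0.882) and 1.35 (1.19 to 1.54). RNA5-8S5, the short RNA of the large subunit, had 95 counts in siPRMT6-1 and 235 in siPRMT6-2, against 132 in siNC, ratios of 0.749 (0.569 to 0.982) and 2.07 (1.66 to 2.58). RNA28S5, the long RNA of that subunit, had 2356 counts in siPRMT6-1 and 2447 in siPRMT6-2, against 1875 in siNC, ratios of 1.31 (1.23 to 1.39) and 1.52 (1.43 to 1.61). All 3 rows were above siNC in siPRMT6-2, whereas in siPRMT6-1 RNA18S5 and RNA5-8S5 were below it and RNA28S5 above. Even if each count of these rows was also a count of RNA45S5, at least 667 RNA45S5 counts in siPRMT6-1 and 2289 in siPRMT6-2, against 1049 in siNC, lay outside them. The mature rows have 6 to 8 loci each, and the labels do not state whether ribosomal RNA was depleted, so the counts are not a measure of the cells' ribosomal RNA content.

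Per length, in TMM-scaled CPM (counts per unit of depth) per kilobase of the counted exons, RN7SL1 stood at 86195 in siPRMT6-1 and 98904 in siPRMT6-2, against 81183 in siNC, and RNA45S5 at 218 and 388, against 213. The RNA45S5 length is the 40081 bases of its 3 loci together, and its counts may miss reads with several alignments. Its per-length value and its last place are therefore not a measure of its level in the cells. The order was RN7SL1, RN7SL2, RN7SK, RMRP, RPPH1 and RNA45S5 in siPRMT6-1 and siNC, with every neighbouring pair apart beyond counting error. In siPRMT6-2 RPPH1 stood at 29972 and RMRP at 28166, a per-length ratio of 1.06 (1.01 to 1.12), against 0.719 in siPRMT6-1 (0.680 to 0.761) and 0.709 in siNC (0.668 to 0.752). The places of RMRP and RPPH1 were thus exchanged in that library, and the other places kept.

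The fit over both knockdown libraries against siNC called none of the 6. Adjusted p was 1.00 for each in edgeR's quasi-likelihood test, and 0 of 6803 tested genes were called higher (0.0%) or lower (0.0%). Unadjusted, 0 of the 6 had p under 0.05, against 182 genes (2.68%). In edgeR's older quasi-likelihood fit RPPH1 had an unadjusted p of 0.0490 and an adjusted p of 1.00. DESeq2 also called 0 genes, with 13 at an unadjusted p under 0.05. The log2 fold change of RPPH1 was 0.67 (SE 0.426, unadjusted p 0.139 in edgeR's test), and that of RNA45S5 was 0.51 (SE 0.426). RMRP stood at 0.31, RN7SK at 0.25, RN7SL2 at 0.22 and RN7SL1 at 0.19, with SEs of 0.378 to 0.383. All 6 estimates were above 0, with a median of 0.28, against a median of 0.03 over all tested genes, and each was less than 2 SEs from 0. A gene's own spread in this fit comes from the 2 knockdown libraries alone (1 residual degree of freedom), and the lone control was assumed to vary like them. edgeR draws that spread toward the spread of the other genes, with a median of 13.9 prior degrees of freedom. The SEs and p-values of the 6 thus rest in large part on spread shared across genes. The fitted values of RPPH1 and RNA45S5 rest on the siPRMT6-2 library: without it they were 0.22 and 0.04, and without siPRMT6-1 they were 1.02 and 0.87.

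**Figure D2:**
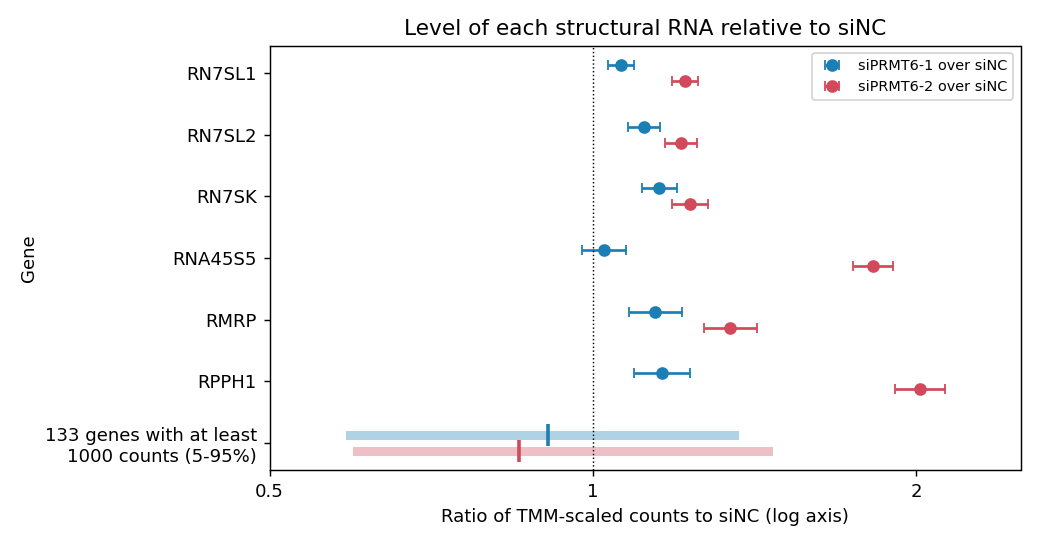
Ratio of TMM-scaled counts to siNC (horizontal log axis) of the 6 RNAs in siPRMT6-1 and siPRMT6-2, with exact binomial 95% intervals of the counting error, and at the bottom the median (tick) and the 5 to 95% range (band) of 133 genes with at least 1000 counts. All ratios of the 6 lie above 1, between 1.02 and 1.16 in siPRMT6-1, while RPPH1 and RNA45S5 reach 2.02 and 1.82 in siPRMT6-2.

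Between single libraries, the interval of the ratio to siNC lay above 1 for 5 of the 6 RNAs in siPRMT6-1, against 5.89% of the tested genes, and for 6 of 6 in siPRMT6-2, against 9.45%. Intervals narrow with depth, so the 133 tested genes with at least 1000 counts over the 3 libraries, a bound set after the values were seen, are the closer background, and the 6 RNAs are among them. In both libraries 17.3% of those genes had an interval above 1. The ratio was above 1 with both siRNAs for 6 of 6, against 30.8% of all tested genes and 11.3% of the 133. With both siRNAs the interval was above 1 for 5 of the 6, against 1.25% of all tested genes and 6.77% of the 133. Both ratios of a gene share the siNC library, so the second siRNA is not an independent check of the first. A ratio of at least 2 was reached by 0 of the 6 in siPRMT6-1, against 7.51% of tested genes, and in siPRMT6-2 by RPPH1, 1 of the 6, against 10.6%. Of the 133, 0.0% reached it in siPRMT6-1 and 1.5% in siPRMT6-2. For siPRMT6-2 over siPRMT6-1 the interval lay above 1 for 6 of 6, against 11.1% of tested genes and 31.6% of the 133.

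Most of the 133 deeply counted genes were below siNC, with a median ratio of 0.909 in siPRMT6-1 and 0.853 in siPRMT6-2. The 6 RNAs ranked from 14 (RPPH1) to 36 (RNA45S5) of 133 by their ratio in siPRMT6-1. In siPRMT6-2 RPPH1 ranked 2 and RNA45S5 ranked 4, followed by RMRP at 11, RN7SK at 15, RN7SL1 at 17 and RN7SL2 at 18. The genes between and next to the first pair, named after their values were seen, were LOC100294362 at rank 1, C10orf55, and SNORD3C, a copy of the U3 small nucleolar RNA that guides early ribosomal RNA cleavage.

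Summed small nuclear and Y RNAs were highest in siPRMT6-1. The 11 tested small nuclear and Y RNAs are 102 to 164 bases long, and RNA5-8S5 was set apart from them after the values were seen. They summed to 3820 counts (1.00%) in siPRMT6-1 and 2236 counts (0.618%) in siPRMT6-2, against 2571 counts (0.626%) in siNC. The sum was 1.55 times siNC in siPRMT6-1 (1.47 to 1.63) and 1.01 times in siPRMT6-2 (0.954 to 1.07). With RNA5-8S5, whose own ratios of 0.749 and 2.07 went the other way, the sum was 1.51 times siNC in siPRMT6-1 (1.43 to 1.58) and 1.06 times in siPRMT6-2 (1.00 to 1.12). In siPRMT6-1, 11 of 11 had a ratio above 1, with a median of 1.77, against 3429 of 6803 tested genes. In siPRMT6-2 it was 5 of 11, with a median of 0.990, against 3393 of 6803. Their intervals lay above 1 for 9 in siPRMT6-1, against 5.89% of tested genes. In siPRMT6-2 that of RNY1 lay below 1, against 622 of 6803 tested genes, and 2 lay above, against 9.45%. The 2 were RNU12, with ratios of 2.18 in siPRMT6-1 and 2.22 in siPRMT6-2, and RNU1-1, with 1.25 and 1.26, so these stood above siNC in both libraries. RNU4-2, a spliceosomal RNA, had 1401 counts in siPRMT6-1 and 888 in siPRMT6-2, against 1042 in siNC, and RNY1, a Y RNA bound by the Ro protein, had 86 and 11, against 30. The part of RNA length and of the recovery of short RNA in these differences was not tested.

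**Figure D3:**
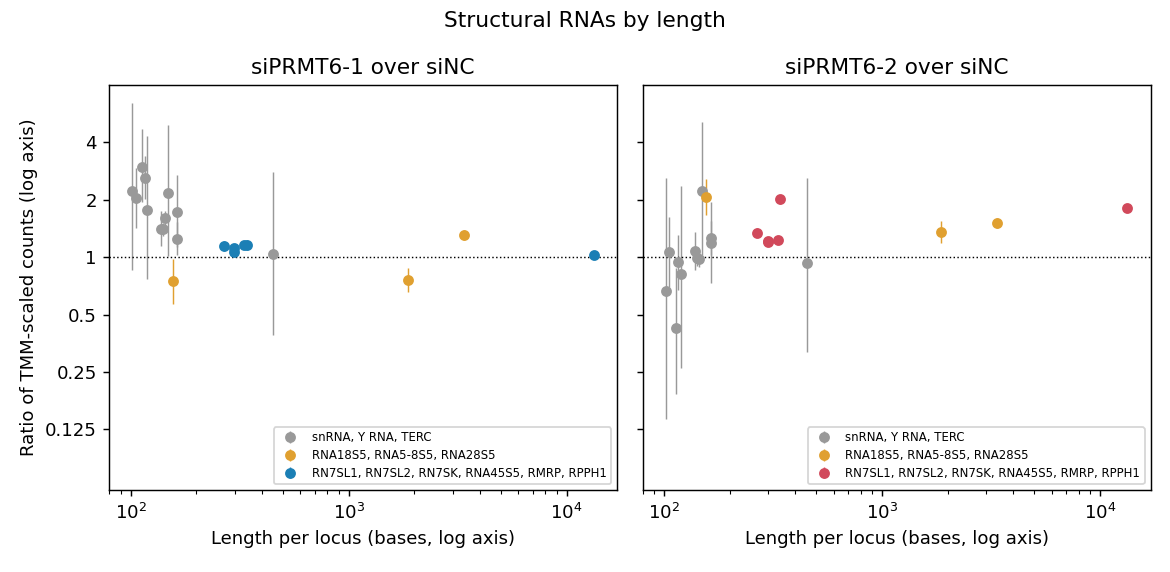
Ratio of TMM-scaled counts to siNC (log axis) against length per locus in bases (log axis) for structural RNAs, in siPRMT6-1 (left) and siPRMT6-2 (right), with exact binomial 95% intervals of the counting error. Small nuclear and Y RNAs had a median of 1.77 in siPRMT6-1 and 0.990 in siPRMT6-2, whereas RPPH1 and RNA45S5 were high in siPRMT6-2.

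Many rows of structural RNAs held no counts. Of 113 further rows of structural RNAs, 58 were at 0 in all 3 libraries. Of 17 rows of the 5S ribosomal RNA, 16 share the same 10 loci and were at 0, and RNU2-1, also with 10 loci, was at 0, whereas its relative RNU2-2P had 211 counts in siPRMT6-1 and 145 in siPRMT6-2, against 156 in siNC. The counting command lacked the option that counts reads with several alignments, so a 0 in such a row is no sign that the RNA is absent. Rows with several loci also held counts: RNU6-1, with 11 loci, had 96 in siPRMT6-1 and 45 in siPRMT6-2, against 49 in siNC, and RNU1-1, with 9 loci, had 221 and 200, against 184. The part of copy number in the rows at 0 was not tested.

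The proteins that work with these RNAs had low counts, and edgeR called 0 of the tested genes of each list, with 0 at an unadjusted p under 0.05. As background for the lists, 3429 of all 6803 tested genes were above siNC in siPRMT6-1 and 3393 in siPRMT6-2. Of the signal recognition particle proteins and receptor, 4 of 8 were tested, 3 of them above siNC in siPRMT6-1 and 2 in siPRMT6-2, with median log2 ratios of 0.43 and −0.07. SRPR, the receptor subunit that meets the particle at the membrane, had 59 counts in siPRMT6-1 and 26 in siPRMT6-2, against 45 in siNC, and shares exon bases with FAM118B on the opposite strand. SRP68 had 10 and 8, against 12, and SRP19 had 11 and 8, against 8. Of the 7SK and P-TEFb proteins, 5 of 8 were tested, 3 above siNC in siPRMT6-1 and 2 in siPRMT6-2, with medians of 0.31 and −0.04. HEXIM2 had 34 counts in siPRMT6-1 and 36 in siPRMT6-2, against 25 in siNC, and HEXIM1, the P-TEFb inhibitor that binds 7SK, had 33 and 20, against 24.

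Of the RNase P and RNase MRP proteins, 5 of 11 were tested, 2 above siNC in each knockdown library, with median log2 ratios of −0.23 in siPRMT6-1 and −0.29 in siPRMT6-2. RPP38, which shares exon bases with C10orf111 on the other strand, had 12 counts in siPRMT6-1 and 14 in siPRMT6-2, against 15 in siNC. RPP25 had 8 and 6, against 14, and POP7 had 11 and 6, against 9. Of the RNA polymerase III genes, 19 of 30 were tested, 11 above siNC in siPRMT6-1 and 7 in siPRMT6-2, with medians of 0.15 and −0.06. In siPRMT6-1 the interval lay above 1 for 4 of them and below for 0, against 401 and 486 of 6803 tested genes. In siPRMT6-2 it lay above 1 for 0 and below for 3, against 643 and 622. BRF1, an initiation factor, had 133 counts in siPRMT6-1 and 69 in siPRMT6-2, against 117 in siNC, and has opposite-strand partners. GTF3C1, of the factor that binds internal promoters, had 95 and 61, against 66.

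Of the RNA polymerase I genes, 8 of 15 were tested, 7 above siNC in siPRMT6-1 and 3 in siPRMT6-2, with median log2 ratios of 0.12 and −0.10. CD3EAP, a polymerase subunit, had 97 counts in siPRMT6-1 and 82 in siPRMT6-2, against 99 in siNC, and has opposite-strand partners. UBTF, which binds ribosomal DNA, had 32 and 24, against 31, and POLR1A, the largest subunit, had 34 and 17, against 32. Of the ribosomal RNA processing list, 16 of 20 were tested, 8 above siNC in siPRMT6-1 and 11 in siPRMT6-2, with medians of 0.05 and 0.22. SNORD3A, the U3 RNA, had 838 counts in siPRMT6-1 and 1075 in siPRMT6-2, against 899 in siNC, ratios of 0.970 (0.882 to 1.07) and 1.39 (1.27 to 1.52). BOP1, a large subunit maturation factor, had 77 and 66, against 65, and NOP56, a box C/D core protein, had 58 and 65, against 76. Over all tested genes the medians were 0.01 and −0.00.

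**Figure D4:**
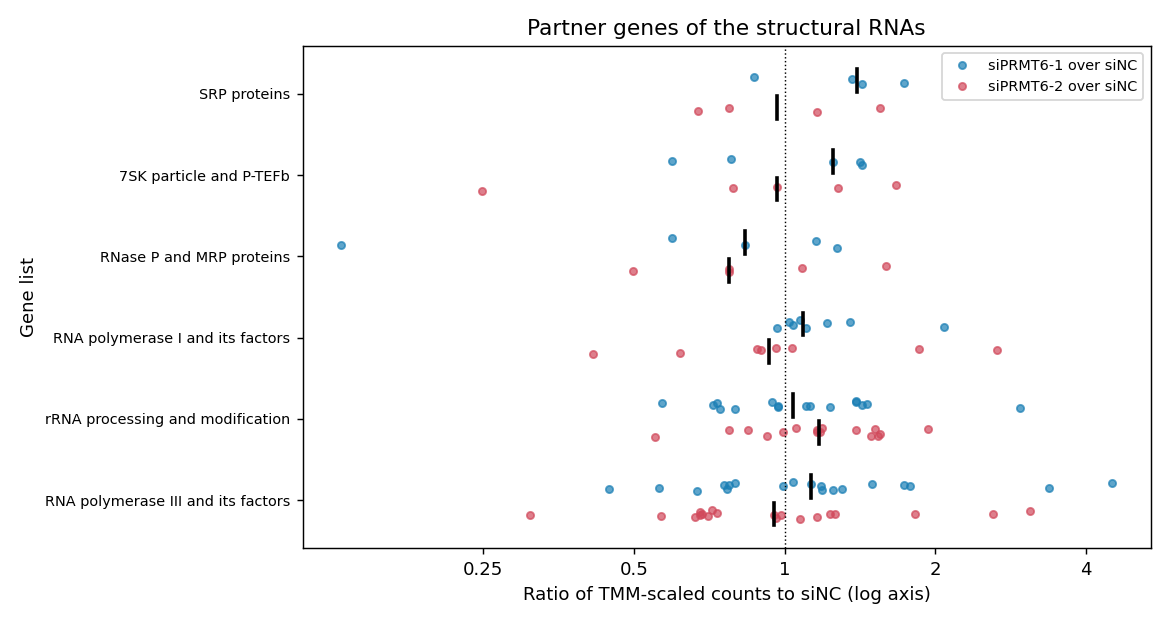
Ratio of TMM-scaled counts to siNC (log axis) of each tested protein or RNA gene of the 6 partner lists, in siPRMT6-1 and siPRMT6-2, with a bar at the median of the list. Points of each list lie on both sides of 1 in both libraries, and 0 were called by edgeR.

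Among 1902 genes with at least 100 counts, those whose pair of log2 ratios to siNC lay nearest to each RNA were CYB561 and RPTOR for RN7SL1, DNMT1 and CAPN2 for RN7SL2, PLCG1 and TRA2B for RN7SK, and PRRC2B and UBXN6 for RMRP. SCARB1 was nearest to RNA45S5, with 27 counts in siPRMT6-1 and 45 in siPRMT6-2, against 28 in siNC, at a log2 distance of 0.03, and TNKS1BP1 was next. HPCA was nearest to RPPH1, with 62 and 94, against 53, at a distance of 0.06, and DSP was next. The likeness is over 2 ratios that share 1 control, and most of these genes have under 100 counts in a library. It thus describes these libraries only. Of the nearest genes, PLCG1 shares exon bases with PLCG1-AS1 on the opposite strand, and HPCA with TMEM54.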

How the data were processed

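Total RNA of 3 HEC1B libraries was counted per gene. The authors deposited raw counts that are whole numbers. The submitters' processing notes name STAR 2.7.8a, featureCounts 2.0.10 and the build hg38. Per the file headers, version 2.0.1 of featureCounts ran on read pairs with strand setting 1, adding a pair in overlapping genes to each, on files whose names mark duplicates as removed by UMI. Per the labels' protocols, RNA was column-purified and 10 ng went into a stranded total RNA kit. 0 columns belonged to other samples.

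Counts were fitted with edgeR 4.0.16 in R 4.3.3 (quasi-likelihood test, TMM, filterByExpr with a minimum count of 10 and minimum total count of 15), with Benjamini-Hochberg adjustment over 6803 genes and a threshold of 0.05, after a check on simulated counts. DESeq2 1.42.0 was an alternative. Library totals of 362080 to 410916 counts set the precision. Intervals at 95% are exact (Clopper-Pearson) from SciPy 1.17.1. Log2 ratios of partner genes use a prior count of 2. The p-values of edgeR's test reflect the spread between 2 knockdown libraries given different siRNAs, drawn toward a spread shared across genes. The spread between these libraries includes any difference between the siRNAs. Since the labels do not name separate cultures, how much of that spread is technical cannot be told.

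The RNAs and lists were chosen with earlier results of these data known. Named besides the 6 RNAs are the 3 genes of each partner list with the highest summed count and the 2 nearest genes of each RNA with at least 100 counts, PRMT6, and examples from the other structural RNAs. The 6 partner lists and the marker lists (epithelial, leukocyte, fibroblast, endothelial and erythroid) were taken from textbook knowledge. The marker sums in siPRMT6-1, siPRMT6-2 and siNC were 889, 1106 and 1628 (epithelial), 360, 372 and 531 (fibroblast), 18, 6 and 19 (endothelial) and 0, 1 and 0 (erythroid) counts. Sequences were matched by gene name for 5 of the 6 RNAs. Some genes that the rule names and some sequences are not reported here.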

Additional observations from a re-analysis of the deposited data

How the results depend on the processing

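All 6 log2 fold changes kept their direction, and none was called, under DESeq2 size factors, library totals, no low-count filter, DESeq2, the older quasi-likelihood fit, the likelihood ratio test, the genes with an opposite-strand partner left out, the 6 RNAs left out of library sizes, and the 7SL copies summed. The lowest adjusted p among these was 0.837, without the filter. Without replicate 1 of the knockdown (siPRMT6-1) the 6 values lay between 0.28 and 1.02, and without replicate 2 (siPRMT6-2) between 0.04 and 0.22, as values with no test. Over all genes, 32 were called by the older quasi-likelihood fit and 31 by the likelihood ratio test of edgeR, against 0 in the report, and the cause was not tested. Some ratios to siNC moved beyond their counting intervals. RN7SL1 in siPRMT6-1 went from 1.06 to 1.10 with library totals. Without genes with an opposite-strand partner, RN7SL1 in siPRMT6-2 went from 1.22 to 1.17 and RN7SL2 from 1.21 to 1.16. The other ratios of the 6 RNAs to siNC stayed inside their intervals, and all stayed above 1. The summed share in siPRMT6-1, siPRMT6-2 and siNC was 15.96%, 18.0% and 14.7% when genes with an opposite-strand partner were left out of the total, 7.27%, 8.07% and 6.34% without RNA45S5, and 3.87%, 5.02% and 3.33% without the 7SL copies. These follow from the smaller totals and sums, and siPRMT6-2 stayed highest and siNC lowest. No paired analysis was possible because the siNC control has 1 library, so the groups share fewer than 2 replicate numbers.

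With 1 control library and 1 library per siRNA, siRNA, culture and library cannot be told apart, and intervals cover counting error only.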
